A study of Mus musculus with 9 samples.

Results

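Kupffer cells, the macrophages that live inside the sinusoids of the liver, were picked out of a single-cell RNA-seq survey of mouse liver and followed through a short and a longer induction of YAP, the transcriptional co-activator held in check by the Hippo pathway. A cell counted as a Kupffer cell when at least 200 genes were detected in it, when C1qa, C1qb and C1qc together had at least 5 UMIs (unique molecular identifiers, each standing for 1 captured RNA molecule), when Clec4f, Vsig4 and Timd4 together had at least 2, and when the lymphocyte genes Cd3e and Cd79a had 0. The rule kept 787 of the 8527 cells with at least 200 genes (9.23%), spread over 9 libraries. The labels number these libraries as replicates and do not say whether each came from 1 mouse. The cells were thus chosen by the measured UMIs of 6 genes and of the 2 lymphocyte genes, so those levels are described below without a test.

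All mice were on a C57BL/6 background and carried ROSA26-rtTA-IRES-EGFP, a doxycycline-controlled activator. The WT mice (2 libraries) had no YAP transgene and received doxycycline food for 7 days. The other mice also carried tetYAP, an active form of YAP switched on by doxycycline. They were fed doxycycline for 3 days (YAP3d, 4 libraries) or 7 days (YAP7d, 3 libraries). According to the study's methods the strain was crossed with Alb-Cre, which removes a stop cassette in cells of the hepatocyte lineage, so the transgene was not directed at Kupffer cells. WT and YAP7d mice thus had the same length of feeding, whereas WT and YAP3d mice did not. Livers were minced and digested with dispase and collagenase by a protocol for cells other than hepatocytes. Ages were not given in the sources used here. The labels name v2 and v3 reagent kits, of which the study's methods assign v2 to these whole-liver libraries.

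Kupffer cells are seeded before birth and maintain themselves by dividing locally, with monocytes from the blood able to replace those that are lost. From the sinusoid wall they take up bacteria, complement-coated particles, dying cells and old red cells, and they recycle the iron of the last. They also present antigen on MHC class II and sense interferon-gamma, and their identity depends on signals from neighbouring endothelial and stellate cells and hepatocytes. Of the genes used to choose them, Clec4f encodes a C-type lectin found almost only on Kupffer cells in the mouse, Vsig4 a receptor for complement C3 fragments, Timd4 a receptor for phosphatidylserine on dying cells, and C1qa, C1qb and C1qc the chains of complement C1q.

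The number of Kupffer cells was 27 and 60 in WT replicates 1 and 2, it was 10, 39, 26 and 61 in YAP3d replicates 1 to 4, and it was 105, 154 and 305 in YAP7d replicates 1 to 3. In the same order their UMIs came to 73992 and 490940, to 57013, 346066, 107201 and 308722, and to 1572543, 2052020 and 6192121. The median number of UMIs per Kupffer cell was 2029 and 6875 in WT, 4533.5, 6652, 2881 and 4219 in YAP3d, and 12936, 10794 and 18270 in YAP7d. The YAP7d Kupffer cells were therefore the most deeply read, and a rule of fixed UMI cuts admits more cells from a deep library, so each share below is given again after every cell was reduced at random to 2000 UMIs. All comparisons are over libraries, never over cells. Where 93 cells of the table shared their barcode with a cell of another library, 8 were Kupffer cells, and 0 of them shared it with another Kupffer cell. Scrublet called 4 Kupffer cells doublets, and 123 had over 10% mitochondrial counts. Since the table gives counts within the cells that were captured, fewer Kupffer cells in the tissue and poorer recovery of them cannot be told apart.

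Outside the rule the most abundant transcripts of Kupffer identity were found in most of the cells of 8 libraries. All 26 genes of a list of Kupffer identity and all 18 pan-macrophage genes were detected well enough to be tested. After thinning to 2000 UMIs, Cd5l, a secreted protein of tissue macrophages, had a UMI in 75 to 93.1% of the Kupffer cells of 8 libraries, the protease gene Lgmn in 75 to 100% and the iron exporter gene Slc40a1 in 68.4 to 92.9%. YAP7d replicate 3 lay below these ranges for Cd5l (53.1%) and Slc40a1 (37.7%) and within the range for Lgmn (78.7%). The F4/80 gene Adgre1 had a UMI in 23.3 to 59.7% of the cells over all 9 libraries. Less abundant genes of the identity list could be sparse at this depth, such as Kcna2 with a UMI in 0 to 26.7%.

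YAP7d replicate 3 went against the label in several ways. The sum of Clec4f, Vsig4 and Timd4 per 10000 UMIs had a median of 50.7 and 52.4 for WT, of 80.6, 22.9, 53.7 and 61.1 in YAP3d and of 44.5 and 54.3 in YAP7d replicates 1 and 2, but of 1.91 in YAP7d replicate 3. All its 305 Kupffer cells had at least 2000 UMIs, and 35.7% of them still met the rule after thinning, against 75 to 96.7% of the Kupffer cells of that depth elsewhere. In addition, 108 of the 305 stood exactly at the cut of 2 marker UMIs (35.4%), against 0 to 10.3% elsewhere. Just outside the cut, 217 of its C1q-positive cells had 1 marker UMI, while the other libraries had between 1 and 30 such cells. In this library 185 of 305 Kupffer cells (60.7%) had 3 or more UMIs of the monocyte genes Ly6c2 and Ccr2, against 0 to 9.09% in the other 8 libraries, and 49 of its 164 cells rich in the neutrophil genes S100a8 and S100a9 met the rule, against 0 elsewhere. Its summed level of 10 neutrophil markers was 2069 CPM, against 27.0 to 366 in the other libraries. Summed T and NK cell markers reached 2017 CPM in YAP3d replicate 1 and 40.5 to 338 elsewhere, and hepatocyte markers 281 to 1450.3 CPM.

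**Figure D1:**
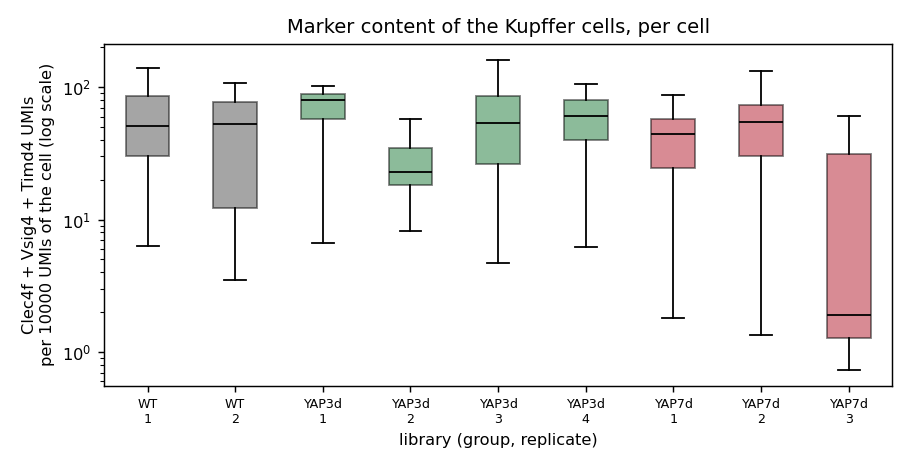
Sum of Clec4f, Vsig4 and Timd4 per 10000 UMIs in the Kupffer cells of each library (log axis; box from the lower to the upper quartile with the median as a line, whiskers from the 5th to the 95th percentile). The median of YAP7d replicate 3 was 1.91, while those of the other 8 libraries lay between 22.9 and 80.6.

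Transcripts of the rule genes were also found in lymphocytes, which do not express them. Lymphocytes were first taken as cells with 2 or more UMIs of Cd3d, Cd3e and Cd3g or of Cd79a and Cd79b, leaving out C1q-positive cells without Cd3e or Cd79a UMIs. In YAP7d replicate 3 a Clec4f UMI was present in 35.0% of 480 lymphocytes with a median of 7805.5 UMIs, and in 89.8% of Kupffer cells with a median of 18270. In the other 8 libraries 3.33 to 22% of lymphocytes and 83.3 to 99.0% of Kupffer cells had one. A narrower definition leaves out Cd3e and Cd79a, which the rule uses, and asks for 2 UMIs of Cd3d and Cd3g or 3 of Cd79b. Setting aside the demand for 0 lymphocyte UMIs, 72 of 412 such lymphocytes (17.5%) of YAP7d replicate 3 would have passed both UMI cuts, and 0 to 5.04% elsewhere. Where these UMIs came from, and what part they had in the membership of this library, was not tested, and the results below are given without it, or with Kupffer cells chosen after thinning, wherever that changed a call or a direction.

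Levels of the rule genes, as CPM (a gene's share of all UMIs, scaled up as is usual) summed over the Kupffer cells of a library, described the same cells from another side. Clec4f stood at 3352 and 2609 CPM in WT, at 4017, 1650.0, 2677 and 3265 in YAP3d, and at 2341, 2654 and 859 in YAP7d. Vsig4 stood at 1260.4 and 1879 CPM in YAP7d replicates 1 and 2 and at 594 in replicate 3, and Timd4 at 415, 526 and 137. YAP7d replicate 3 was the lowest of all libraries for all 3 genes. YAP7d replicate 1 was also below both WT libraries for Clec4f and Vsig4, and replicate 2 lay between them.

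Of all cells in the WT libraries 5.18 and 4.24% were Kupffer cells. YAP3d libraries gave 3.56, 8.82, 6.16 and 2.39%, and YAP7d libraries gave 17.5, 33.4 and 16.6%. All 6 other libraries lay below YAP7d, and the WT values lay within the range of YAP3d. Mean shares were 4.71 ± 0.668% (SD, n = 2) for WT, 5.23 ± 2.87% (SD, n = 4) for YAP3d and 22.5 ± 9.44% (SD, n = 3) for YAP7d, and an exact permutation test over the 3 groups gave p 0.0119. Without 1 or the other WT library this p was 0.0643 and 0.0714, and without any 1 of the YAP7d libraries it was 0.0619. Between YAP7d and WT the difference of 17.8 percentage points gave p 0.1 in a two-sided exact permutation test, the smallest that 3 against 2 libraries allow (adjusted over the 3 pairs 0.15). The difference of 17.3 points between YAP7d and YAP3d had an exact p of 0.0286, the smallest that 3 against 4 allow (adjusted 0.0857). YAP3d and WT differed by 0.524 points (exact permutation p 0.867, with 0.0667 the smallest possible).

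After thinning to 2000 UMIs the shares were 4.07 and 4.2% in WT, 2.79, 7.60, 4.15 and 2.72% in YAP3d, and 15.4, 28.4 and 8.45% in YAP7d. The groups kept their order, and YAP7d replicate 3 came to stand just above the highest YAP3d library. These counts include cells with Cd3e or Cd79a UMIs at full depth. Such cells were 46 of 155 in YAP7d replicate 3, 12 of 55 in WT replicate 2 and 2 of 31 in YAP3d replicate 2. Without them YAP7d replicate 3 kept 109 of 1834 cells and YAP3d replicate 2 kept 29 of 408, so that the former no longer stood above the latter. With them included, the exact permutation test over the 3 groups gave p 0.0389, and that between YAP7d and WT p 0.2. No test was run without them. Under a stricter rule, with at least 10 C1q UMIs and 4 marker UMIs, the YAP7d libraries ranged from 6.92 to 28.9%. The mice differed in other populations as well, and since a share is taken of all captured cells, more Kupffer cells and fewer others cannot be told apart.

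**Figure D2:**
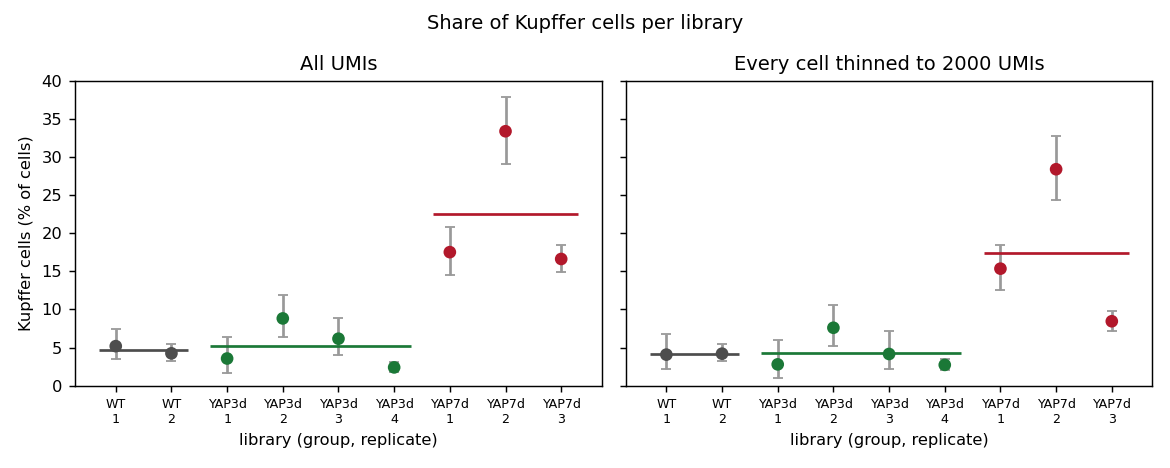
Kupffer cells as a percentage of all cells with at least 200 genes, by library, at full depth (left) and after every cell was thinned to 2000 UMIs before the rule was applied (right). Points are libraries, vertical bars give 95% Clopper-Pearson limits for counting error, and horizontal lines are group means; the YAP7d libraries lay at 16.6 to 33.4% on the left and at 8.45 to 28.4% on the right.

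Among the 1469 cells with at least 5 C1q UMIs and 0 lymphocyte UMIs, 787 met the rule, 285 had 1 UMI of the Kupffer markers and 397 had 0. The share that met the rule was 84.4 and 71.4% in WT, 90.9, 53.4, 78.8 and 83.6% in YAP3d, and 62.1, 71.6 and 39.2% in YAP7d. At full depth the groups overlapped, and since the marker UMIs of the rule fix this share it is given without a test. After thinning to 2000 UMIs it was 93.3 and 71.4% in WT, 75, 55.4, 66.7 and 80.5% in YAP3d, and 60.5, 66.5 and 33.3% in YAP7d. YAP7d then lay below WT, while YAP3d overlapped both. YAP7d also lay below WT under the stricter rule and with a quality cut (500 genes, 10% mitochondrial), but not under a looser rule (3 C1q UMIs and 1 marker UMI). The number of C1q-positive cells without any marker UMI was 3 and 18 in WT, 0, 29, 5 and 10 in YAP3d, and 44, 31 and 257 in YAP7d.

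Counts were next summed over the Kupffer cells of each library, and 5504 genes were tested at once by edgeR's quasi-likelihood method, with p adjusted by the Benjamini-Hochberg method over all of them. Between YAP7d and WT 112 genes passed an adjusted p of 0.05 (2.03% of those tested), 12 higher (0.218%) and 100 lower (1.82%), with 999 at an unadjusted p below 0.05. The 3 YAP7d and 2 WT libraries were fully separated for 24.1% of genes in the upward and 21.7% in the downward direction. Single libraries decided the number of calls. Leaving out WT replicate 2 brought it to 0 (854 at an unadjusted p below 0.05), and leaving out WT replicate 1 to 35. For YAP7d replicates 1, 2 and 3 in turn it came to 11, 4 and 173, and for YAP3d replicates 2 and 3 to 228 and 60. None of the calls named below for YAP7d and WT therefore stood without WT replicate 2, where that group was left with 1 library.

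Genes of the cell cycle were higher in Kupffer cells of YAP7d livers. For the DNA replication and S phase list, 25 of 30 genes were tested, and all 25 had a log2 difference above 0 between YAP7d and WT with a median of 1.55 (median of all genes -0.01). Of these 22 were higher without overlap between the groups, as were 24.1% of all genes, and 2 rose past the test. For the mitosis and G2 list, 23 of 34 were tested, all 23 were above 0 with a median of 2.49, 22 did not overlap and 1 rose past the test. With a term for the libraries that held transcripts of the pseudogene Gm10709, described below, the medians were 0.20 and -0.72 and no member passed. When Kupffer cells that held endothelial transcripts, also described below, were left out, 10 of all 12 genes that rose could be tested. All 10 kept a difference above 0, but 0 passed, so the calls for rises given next did not stand there.

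Tk1, which encodes thymidine kinase of the nucleotide salvage pathway, stood at 14.2 and 27.3 CPM in WT, at 218, 151, 106 and 20.6 in YAP3d, and at 236, 248 and 181 in YAP7d. The YAP7d and WT libraries did not overlap, while YAP3d spanned the distance between them. On the log2 scale Tk1 rose by 3.17 (SE 0.74, edgeR adjusted p 0.049) between WT and YAP7d. Mcm7, a subunit of the replicative helicase, stood at 14.2 and 18.2 CPM in WT, at 54.5, 65.1, 28.8 and 24.0 in YAP3d, and at 87.7, 78.0 and 76.5 in YAP7d. In YAP7d the values were close together and above all others, and Mcm7 rose by 2.20 (SE 0.50, edgeR adjusted p 0.041).

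Cenpa, the histone H3 variant that marks centromeres, stood at 14.2 and 20.5 CPM in WT, at 18.2, 101, 67.2 and 54.9 in YAP3d, and at 83.1, 114 and 160 in YAP7d. On the log2 scale it rose by 2.62 (SE 0.55, edgeR adjusted p 0.035), and the highest YAP3d library lay within the YAP7d range. In WT endothelial cells Cenpa was 5.38 times as high as in Kupffer cells. Gmnn, which encodes geminin, the inhibitor of replication licensing, stood at 42.6 and 47.8 CPM in WT, at 58.3 to 101 in YAP3d and at 155, 146 and 112 in YAP7d, and rose by 1.56 (edgeR adjusted p 0.046). Also given are 2 members outside the naming rule, chosen with their values known. Mki67, the proliferation antigen Ki-67, had 0 and 20.5 CPM in WT against 97.5, 167 and 60.1 in YAP7d but did not pass (log2 difference 2.68, edgeR adjusted p 0.20). Cdk1, the kinase of mitotic entry, had 0 and 29.6 CPM in WT, 36.3, 53.2, 19.2 and 10.3 in YAP3d and 72.0, 79.6 and 71.3 in YAP7d (log2 difference 1.65, edgeR adjusted p 0.17). Birc5, which encodes survivin, had a log2 difference of 2.89 (edgeR adjusted p 0.12).

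A Kupffer cell was counted as holding mitotic transcripts when it had 3 or more UMIs of the mitosis and G2 list after thinning to 2000 UMIs. In WT this was so for 0 of 14 and 3 of 57 cells (0 and 5.26%), in YAP3d for 2 of 8, 13 of 30, 0 of 15 and 1 of 58 (25, 43.3, 0 and 1.72%), and in YAP7d for 40 of 105, 48 of 154 and 78 of 305 (38.1, 31.2 and 25.6%). YAP7d lay above WT throughout, and YAP3d ranged from below WT replicate 2 to above YAP7d. The 2 of 8 cells of YAP3d replicate 1 have an exact 95% interval of 3.19 to 65.1%. For the 0 of 14 and 0 of 15 cells the exact 95% interval reaches up to 23.2 and 21.8%. Without thinning the shares were 7.41 and 11.7%, then 30, 51.3, 26.9 and 1.64%, and then 76.2, 70.1 and 75.1%. With YAP3d replicate 1 left out because fewer than 10 of its cells were deep enough, YAP7d and WT differed by 29.0 percentage points (exact two-sided permutation p 0.1, the smallest possible), and the exact permutation test over the 3 groups gave p 0.246. The same test gave p 0.0286 without YAP3d replicate 2, and p 0.0127 over all 9 libraries without thinning, where the depth of the groups differs.

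The same libraries were set apart by Gm10709. Over all cells it reached 347 to 611 CPM in YAP3d replicates 1 and 2 and in the 3 YAP7d libraries, and 3.65 to 11.2 CPM in both WT libraries and YAP3d replicates 3 and 4. The mitotic share of Kupffer cells was 25 to 43.3% in the former 5 and 0 to 5.26% in the latter 4, without thinning it was 30 to 76.2% and 1.64 to 26.9%, where YAP3d replicates 1 and 3 stood side by side, and the summed level of the mitosis list was 719 to 1972 and 146 to 401 CPM. Within the libraries of either kind the 3 groups cannot all be compared, since WT had no library with these transcripts and YAP7d none without. With Gm10709 as a term in the fit, edgeR called 0 genes in all 3 comparisons. What marks these libraries cannot be told apart from the groups by YAP7d and WT alone.

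**Figure D3:**
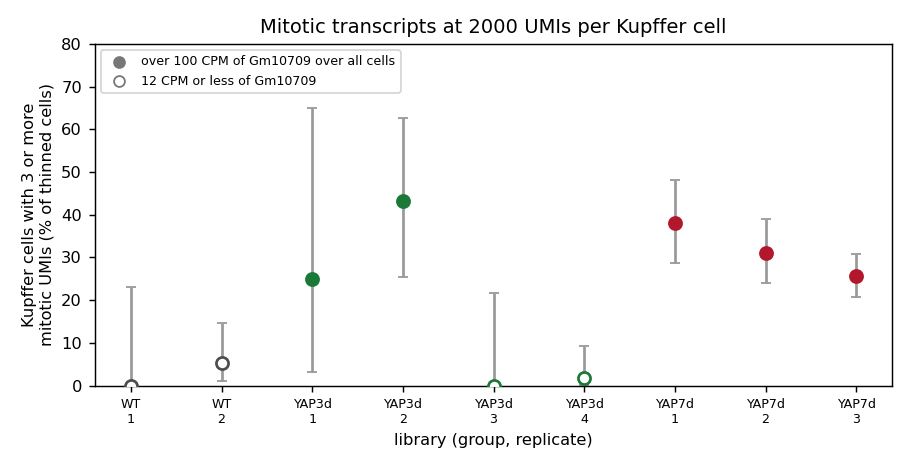
Percentage of Kupffer cells with 3 or more UMIs of the mitosis and G2 list after thinning to 2000 UMIs, by library, with exact Clopper-Pearson 95% intervals for counting error. Filled points are libraries with over 100 CPM of Gm10709 over all cells (25 to 43.3%) and open points are the other libraries (0 to 5.26%).

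Promoters of genes transcribed in G2 and mitosis often carry CCAAT boxes, bound by NF-Y, and some carry the cell cycle homology element TTTGAA near the start site. In RefSeq windows of GRCm38.p6 from 250 bases before to 50 bases after a gene's start, CCAAT on either strand (CCAAT or ATTGG) was found in 37.4% of 32851 windows and TTTGAA on either strand (TTTGAA or TTCAAA) in 17.9%. For the mitosis and G2 list these were 26 of 30 windows (86.7%) and 23 of 30 (76.7%), counted over the list whatever its genes did here. In total 3 members are shown with the 150 bases before the start, 5′ to 3′ on the strand of the gene, with both motifs in capitals: Cenpa as the member that passed (chr5:30666736-30666885, plus strand), and the mitotic kinase and cyclin genes Cdk1 (chr10:69352913-69353062, minus strand) and Ccnb1 (chr13:100786487-100786636, minus strand).
Cenpa: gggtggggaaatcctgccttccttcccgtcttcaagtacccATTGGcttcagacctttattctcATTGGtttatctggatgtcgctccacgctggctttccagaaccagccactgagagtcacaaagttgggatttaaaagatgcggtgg
Cdk1: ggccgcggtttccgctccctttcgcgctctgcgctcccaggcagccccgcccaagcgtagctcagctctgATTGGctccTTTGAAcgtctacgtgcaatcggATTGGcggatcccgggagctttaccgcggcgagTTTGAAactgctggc
Ccnb1: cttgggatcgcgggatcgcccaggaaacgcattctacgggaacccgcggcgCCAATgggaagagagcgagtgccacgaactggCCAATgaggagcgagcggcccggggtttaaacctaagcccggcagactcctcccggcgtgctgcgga
Each of the 3 stretches holds 2 CCAAT boxes, and Cdk1 also holds 2 copies of TTTGAA. Nothing in these data bears on which proteins were bound there.

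Genes of antigen presentation by MHC class II were next. Of the 11 listed genes 6 were tested, and all 6 had log2 differences below 0 between YAP7d and WT with a median of -1.64. Of these 5 were lower without overlap, as were 21.7% of all genes, and 0 passed edgeR at full depth, with the members as chosen. Cd74, which encodes the invariant chain that escorts class II molecules, stood at 8316 and 7591 CPM in WT, at 5033, 355, 3071 and 5076 in YAP3d, and at 1286, 1250 and 3745 in YAP7d. All YAP3d and YAP7d libraries lay below both WT libraries, and YAP3d replicate 2 was the lowest of all. The log2 difference between YAP7d and WT was -1.92 (SE 0.75, edgeR adjusted p 0.20), and without YAP7d replicate 3 it was -2.65 (edgeR adjusted p 0.093).

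H2-Ab1, the class II beta chain of the A molecule (chromosome 17, 34263227 to 34269418), stood at 3321 and 2931 CPM in WT, at 1908, 180.4, 777 and 1907 in YAP3d, and at 585, 451 and 1519 in YAP7d. Its alpha chain H2-Aa (chromosome 17, 34282744 to 34287823) stood at 2583 and 2300.1 CPM, at 1981, 189, 1142 and 1807, and at 493, 423 and 1398. H2-Eb1, the beta chain of the E molecule (chromosome 17, 34305867 to 34316674), stood at 1902 and 1694 CPM, at 1399, 94.6, 662 and 1097, and at 371, 321 and 1042. For each of these genes the WT libraries were the highest and YAP3d replicate 2 the lowest, and YAP7d replicate 3 was the highest of its group. Their log2 differences between YAP7d and WT were -1.87, -1.66 and -1.63 (edgeR adjusted p 0.19, 0.23 and 0.26). H2-DMa, which loads peptides onto class II, had a smaller difference of -0.43 (edgeR adjusted p 0.47).

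When the Kupffer cells were chosen after thinning to 2000 UMIs and their full counts were then used, an alternative added after the data were seen, YAP7d replicate 3 had 155 cells, of which 109 were Kupffer cells at full depth and 46 were newly admitted. Across the other 8 libraries 0 to 14 cells were new, and all new cells had Cd3e or Cd79a UMIs at full depth, since thinning can only lower the other counts. They were 2 of 14 and 12 of 55 cells in WT replicates 1 and 2, and 14 of 66 in YAP3d replicate 4. In YAP7d replicates 1 and 2 they were 4 of 92 and 3 of 131. The class II values that follow include these cells, no fit was made without them, and their part in these values was not tested. YAP3d replicate 1 was left out because 6 of its cells remained. Cd74 then stood at 8046 and 9174 CPM in WT, at 337, 3851 and 5730 in YAP3d replicates 2 to 4, and at 187, 428 and 679 in YAP7d. The YAP7d libraries lay below both WT libraries and below all but YAP3d replicate 2. Under this choice Cd74 fell by 4.32 on the log2 scale between WT and YAP7d (SE 0.77, edgeR adjusted p 0.0073 over 5909 genes), and H2-Ab1, H2-Aa and H2-Eb1 fell by 4.18, 4.16 and 4.18 (edgeR adjusted p 0.0053, 0.0058 and 0.0071). These were 4 of the 7 class II genes tested under this choice, and the genes of the peptide-loading DM molecule, H2-DMa, H2-DMb1 and H2-DMb2, had differences of -0.89, -1.04 and -0.95 that did not pass (edgeR adjusted p 0.16, 0.086 and 0.67). Between YAP3d and YAP7d, Cd74, H2-Aa and H2-Ab1 fell by 2.93, 2.92 and 2.58 (edgeR adjusted p 0.042, 0.025 and 0.045), while H2-Eb1 missed the threshold with -2.68 (edgeR adjusted p 0.055).

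**Figure D4:**
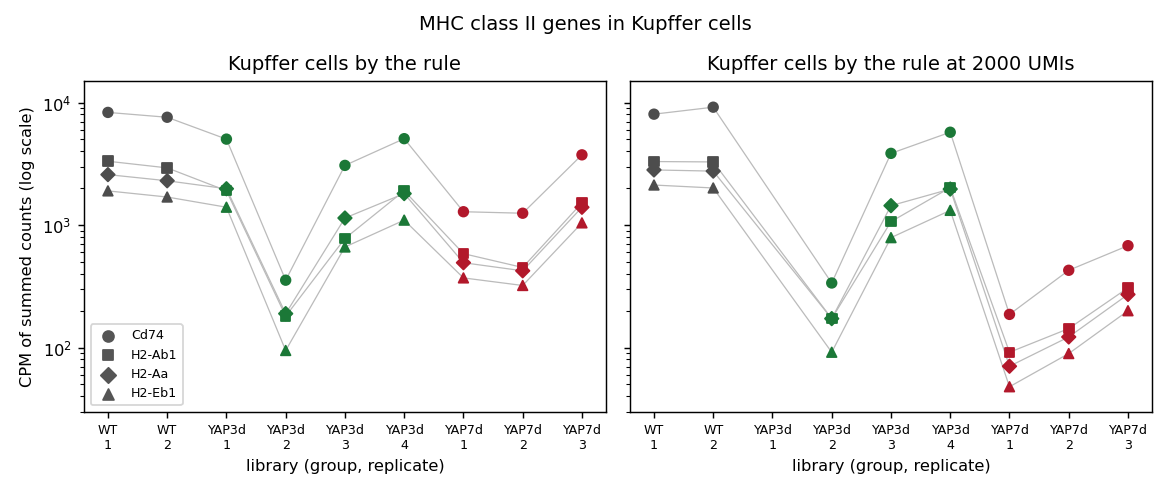
CPM of Cd74, H2-Aa, H2-Ab1 and H2-Eb1 in Kupffer cells by library (log axis), with cells chosen at full depth (left) and after thinning to 2000 UMIs (right, without YAP3d replicate 1, which kept 6 cells); thin lines join the points of a gene and imply no order of libraries. Cd74 in the YAP7d libraries was 1250 to 3745 CPM on the left and 187 to 679 on the right, against 7591 CPM or more in WT on either side.

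Transcription of class II genes runs through a conserved upstream module whose Y box is a CCAAT box bound by NF-Y, with the co-activator CIITA joining the complex. A CCAAT box on either strand was present in 8 of 9 RefSeq windows of the class II list (88.9%) and TTTGAA in 0. The 150 bases before the start are shown for H2-Aa (chr17:34287824-34287973, minus strand) and H2-Eb1 (chr17:34305717-34305866, plus strand), a class II alpha and beta chain with large differences here, with CCAAT or ATTGG in capitals.
H2-Aa: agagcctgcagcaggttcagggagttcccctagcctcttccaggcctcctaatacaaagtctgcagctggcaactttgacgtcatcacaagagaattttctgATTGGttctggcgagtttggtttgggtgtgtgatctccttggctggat
H2-Eb1: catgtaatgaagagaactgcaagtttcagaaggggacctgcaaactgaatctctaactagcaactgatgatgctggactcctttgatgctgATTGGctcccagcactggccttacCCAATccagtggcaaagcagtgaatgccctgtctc
Both hold the box, once in H2-Aa and 2 times in H2-Eb1. Ciita itself was too low to be tested, with 0 and 4 UMIs in WT, 0, 0, 0 and 3 in YAP3d and 5, 7 and 33 in YAP7d.

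MHC class I differed less. Of 23 listed genes 22 were tested, and 18 were lower in YAP7d than in WT with a median log2 difference of -0.47. Of these 11 were lower without overlap, as were 21.7% of all genes, and 0 passed edgeR. B2m, the light chain of class I, had a log2 difference of -0.73 (edgeR adjusted p 0.22), H2-K1 one of -1.02 (0.11) and H2-D1 one of -0.73 (0.22). Ifi30, the lysosomal thiol reductase that unfolds antigens for class II loading, went the other way. It stood at 568 and 380.4 CPM in WT, at 618, 461, 566 and 412 in YAP3d, and at 1149, 1310 and 998 in YAP7d. The YAP7d libraries lay above all others, and Ifi30 (chromosome 8, 70762773 to 70766663) rose by 1.31 between WT and YAP7d (SE 0.30, edgeR adjusted p 0.041) and by 1.19 between YAP3d and YAP7d (SE 0.23, edgeR adjusted p 0.034). Without the Kupffer cells that held endothelial transcripts, described below, the 2 values were 1.16 and 1.0 (edgeR adjusted p 0.16 each).

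In the list of interferon-gamma response genes and GTPases, 19 of 25 were tested, and 18 were lower in YAP7d than in WT with a median log2 difference of -1.39. Of these 14 were lower without overlap, as were 21.7% of all genes, and 1 fell past the test. This was Gbp2b (chromosome 3, 142594816 to 142619179), a guanylate-binding GTPase of cell-autonomous defence. It stood at 312 and 112 CPM in WT, at 109, 14.8, 67.2 and 96.0 in YAP3d, and at 5.24, 11.1 and 2.33 in YAP7d. The 3 groups did not overlap, and Gbp2b fell by 5.01 on the log2 scale between WT and YAP7d (SE 0.74, edgeR adjusted p 0.013) and fell by 3.46 between YAP3d and YAP7d (edgeR adjusted p 0.035). In WT endothelial cells its level was 0.01 times that in Kupffer cells, and without endothelial-positive cells it fell by 5.59 against WT (edgeR adjusted p 0.012) and differed by -3.40 from YAP3d (0.14). The type I interferon list had a median of -0.57, and 0 of its 20 tested genes passed.

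Complement genes outside the rule included 15 tested of 20, with a median log2 difference of -1.08 between YAP7d and WT, and 2 of them fell. C4b, complement component C4 (chromosome 17, 34728139 to 34743902), stood at 114 and 551 CPM in WT, at 327, 91.7, 307 and 268 in YAP3d, and at 24.9, 17.1 and 14.0 in YAP7d. All YAP7d values were the lowest. C4b fell by 4.30 between WT and YAP7d (SE 0.58, edgeR adjusted p 0.011) and fell by 3.68 between YAP3d and YAP7d (SE 0.55, edgeR adjusted p 0.028). Without the Prg4-positive cells described below, and without YAP3d replicate 1, which then had 9 cells, it fell by 3.23 against WT (edgeR adjusted p 0.017). The other was Cd55, decay-accelerating factor, which fell by 3.48 (edgeR adjusted p 0.026) and was 3.86 times higher in WT endothelial cells than in Kupffer cells.

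Among 23 tested chemokine and receptor genes of 27 the median log2 difference between YAP7d and WT was -0.19, with 2 lower past the test. Cxcl13, which attracts B cells (chromosome 5, 95956939 to 95961068), stood at 227 and 369 CPM in WT, at 854, 503, 413 and 229.8 in YAP3d, and at 66.8, 9.06 and 8.97 in YAP7d. These 3 were the lowest values, and Cxcl13 fell by 3.51 against WT (SE 0.77, edgeR adjusted p 0.040) and by 4.15 against YAP3d (SE 0.73, edgeR adjusted p 0.029). Without endothelial-positive cells the differences were -3.01 and -4.42 (edgeR adjusted p 0.16 and 0.060), and without Prg4-positive cells -3.27 and -3.00 (0.073 and 0.068). Cxcl1, a chemoattractant for neutrophils, passed with overlapping values, since 296 CPM in WT replicate 2 stood against 0 in WT replicate 1. Ccl2, the main attractant of monocytes, stood at 142 and 251 CPM in WT, at 491, 518, 9.60 and 271 in YAP3d, and at 316, 104 and 189 in YAP7d, so that its groups overlapped (YAP7d minus WT -0.03, SE 0.78, edgeR adjusted p 0.99). Among cytokines and growth factors Tgfb1 differed by 0.22 between YAP7d and WT (SE 0.27, edgeR adjusted p 0.73), with 256 and 319 CPM in WT and 290.0, 341 and 387 in YAP7d. Csf1, the growth factor of macrophages, was too low to be tested, with 1 to 11 UMIs per library.

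Wfdc17, a small secreted protein with a whey acidic protein domain, was among the most abundant transcripts to fall and was chosen after its values were seen. It stood at 10275 and 9456 CPM in WT, at 7032, 3765, 8743 and 8787 in YAP3d, and at 2347, 2686 and 1755 in YAP7d. The 3 groups did not overlap, and Wfdc17 (chromosome 11, 83704056 to 83706269) fell by 2.12 between WT and YAP7d (SE 0.34, edgeR adjusted p 0.017) and by 1.65 between YAP3d and YAP7d (SE 0.30, edgeR adjusted p 0.032). Without endothelial-positive cells it fell by 2.49 against WT (edgeR adjusted p 0.024) but missed the threshold against YAP3d (-1.98, 0.060), and without YAP7d replicate 3 it fell by 1.97 (edgeR adjusted p 0.016). Likewise chosen after the values were seen, Ly96, the MD-2 partner of the endotoxin receptor, fell by 1.48 against WT (edgeR adjusted p 0.031), the interferon-inducible AW112010 by 1.73 (0.040), the glutamine synthetase gene Glul by 1.56 (0.033) and the nuclear RNA Malat1 by 2.06 (0.026). None of these 4 was over 2-fold higher in WT endothelial cells than in Kupffer cells.

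Most of the genes that fell were more abundant in endothelial cells than in Kupffer cells. Of the 100 that fell between WT and YAP7d, 65 were over 2-fold higher in WT cells with 10 or more endothelial UMIs than in WT Kupffer cells, against 1030 of all 5504 genes tested, and 9 were on the list of endothelial markers itself. All 18 tested genes of that list were lower in YAP7d than in WT without overlap, as were 21.7% of all genes, with a median log2 difference of -3.78. Clec4g, a lectin of sinusoidal endothelium, stood at 1490.1 and 795 CPM in WT Kupffer cells, at 18.2, 275, 1161 and 1224 in YAP3d, and at 23.6, 16.1 and 47.9 in YAP7d, and its level in WT endothelial cells was 5.36 times that in Kupffer cells. The summed level of the 18 markers was 9217 and 4942 CPM in WT, 456, 1881, 9935 and 7761 in YAP3d, and 498, 334 and 765 in YAP7d, with none of them at 0 except 6 in YAP3d replicate 1. Kupffer cells with 3 or more UMIs of 7 of these markers made up 29.6 and 61.7% in WT, 0, 12.8, 34.6 and 65.6% in YAP3d, and 9.52, 7.14 and 12.8% in YAP7d.

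When these endothelial-positive cells were left out, 2613 genes could be tested and 16 differed between YAP7d and WT. Of the 100 genes that fell at first, 35 could still be tested and 12 still fell, among them Gbp2b, C4b, Wfdc17, Timp2, Ly96, AW112010 and Malat1. Of the 35, 34 kept a difference below 0, and the median of the 35 was -2.21, against -2.12 for the same genes with all Kupffer cells. These medians cover kept and lost calls together, and the genes that could not be tested are not in them. Likewise 10 of the 12 genes that rose could be tested and 0 passed. All 10 kept a difference above 0, with a median of 2.01 against 2.09 for the same genes with all Kupffer cells. Stab1, a scavenger receptor shared by Kupffer and endothelial cells, stood at 284 and 164 CPM in WT, at 130.1 to 271 in YAP3d and at 60.9, 65.5 and 67.0 in YAP7d and fell by 1.71 (edgeR adjusted p 0.035), but had a difference of 0.13 once endothelial-positive cells were left out. Dnase1l3, an extracellular nuclease, fell by 5.01 (SE 0.84, edgeR adjusted p 0.020), from 1008 and 640.0 CPM to 28.1, 10.1 and 35.7, and its level in WT endothelial cells was 4.67 times that in Kupffer cells. Bmp2 and Wnt2, signals made by sinusoidal endothelium, fell by 4.2 and 4.52 (edgeR adjusted p 0.039 and 0.038).

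**Figure D5:**
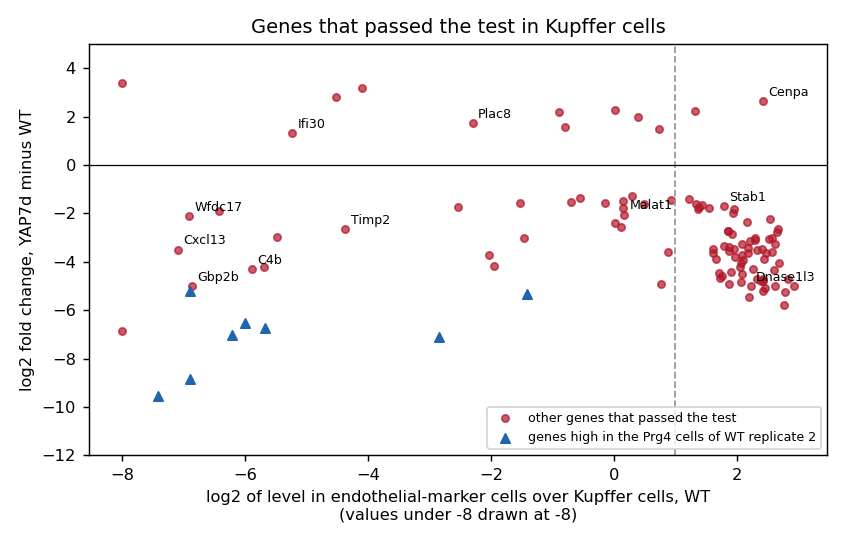
Genes that passed edgeR between YAP7d and WT in Kupffer cells, by the log2 ratio of their level in WT endothelial-marker cells to that in WT Kupffer cells (x axis; values under -8 are drawn at -8) and by their log2 fold change (y axis). Right of the dashed line at 1, genes were over 2-fold higher in endothelial cells: 65 of the 100 that fell lay there, and blue triangles mark the Prg4 list, with 8 genes among those that fell.

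Some of the genes that fell stood high in a few cells of WT replicate 2. Of its 60 Kupffer cells 9 had 3 or more UMIs of a list added after the data were seen (Prg4, Alox15, Gata6, Serpinb2, Saa3, Selp, F5, Padi4 and Ednrb), which are known from large macrophages of the peritoneal cavity, and these 9 held 1458 of the 1474 UMIs of the list in that library. All 9 had 0 UMIs of Clec4f, and their level of Cd74, H2-Aa, H2-Ab1 and H2-Eb1 together was 819 CPM, against 16955 in the other 51. In the other libraries such cells numbered 0 in WT replicate 1, 1, 1, 0 and 1 in YAP3d and 1, 0 and 10 in YAP7d. Prg4, which encodes lubricin, stood at 0 and 1020.3 CPM in WT, at 0, 343, 0 and 78.9 in YAP3d, and at 0.65, 0 and 0.90 in YAP7d. Of the 100 genes that fell 8 were on this list, a count that follows from how the list was drawn up and supports nothing. Without WT replicate 2 the log2 differences of Prg4, Alox15 and Saa3 turned to values above 0. Timp2, an inhibitor of metalloproteinases, fell by 2.66 (edgeR adjusted p 0.012) and by 1.60 without the Prg4-positive cells, where it no longer passed (0.11).

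Other genes that rose between WT and YAP7d by the naming rule had diverse roles, and their calls too did not stand without the endothelial-positive cells. Ttc39c, which encodes a protein of tetratricopeptide repeats, stood at 14.2 and 9.11 CPM in WT, at 0, 11.8, 28.8 and 6.86 in YAP3d, and at 49.7, 143 and 123 in YAP7d. No other library reached the YAP7d range, and Ttc39c rose by 3.39 against WT (SE 0.73, edgeR adjusted p 0.039) and by 3.18 against YAP3d (SE 0.55, edgeR adjusted p 0.029). Rbm3, an RNA-binding protein induced by cold, stood at 170.3 and 278 CPM in WT, at 581, 488, 298 and 309 in YAP3d, and at 659, 799 and 1312 in YAP7d, and rose by 1.98 against WT (SE 0.41, edgeR adjusted p 0.035). Acot1, an acyl-CoA thioesterase, rose by 2.80, Coq7, an enzyme of ubiquinone synthesis, by 2.26 and Thyn1 by 2.22 (edgeR adjusted p 0.040, 0.040 and 0.044). For the last 3 genes all YAP3d libraries also lay above both WT libraries.

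Genes of Kupffer identity outside the rule did not pass the test between YAP7d and WT, and 2 of them, Sdc3 and Kcna2, fell between YAP3d and YAP7d, as described below. Of the 26 genes of the list outside the rule, 20 were lower and 6 higher in YAP7d than in WT with a median log2 difference of -0.46. Without overlap 12 were lower and 2 higher (21.7 and 24.1% over all genes), and 0 passed edgeR. Cd5l stood at 3818 and 3043 CPM in WT, at 4888, 2532, 3417 and 3625 in YAP3d, and at 3893, 5409 and 2094 in YAP7d, and its groups overlapped (YAP7d minus WT 0.15, SE 0.37, edgeR adjusted p 0.88). Slc40a1, ferroportin, had a difference of -0.16 (SE 0.40, edgeR adjusted p 0.88). Csf1r, the receptor through which macrophages survive, stood at 1150 and 991 CPM in WT, at 1072, 597, 902 and 1300 in YAP3d, and at 552, 712 and 505 in YAP7d, without overlap between YAP7d and WT but short of the threshold (-0.85, edgeR adjusted p 0.18). Fabp7, a fatty acid-binding protein chosen after its values were seen, went the other way, with 553 and 453 CPM in WT and 1321, 2455 and 809 in YAP7d (1.62, edgeR adjusted p 0.085), and rose by 1.93 without YAP7d replicate 3 (edgeR adjusted p 0.019).

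Of 20 transcription factors of macrophages, all tested, 0 passed and the median was -0.33. Maf, a factor that holds macrophages in their differentiated state, stood at 922 and 508 CPM in WT, at 581, 432, 864 and 803 in YAP3d, and at 291, 267 and 99.4 in YAP7d. The YAP7d libraries lay below all others (-1.68, SE 0.45, edgeR adjusted p 0.083). Id3 differed by -0.38 (edgeR adjusted p 0.60). Among scavenger and engulfment receptors 20 of 22 were tested with a median of -0.73, and Stab1 was the gene that passed. The mannose receptor gene Mrc1 differed by -1.58 (edgeR adjusted p 0.14) and Marco by -0.17 (0.95). Iron and heme handling had a median of -0.15 over 15 tested genes, with ferritin light chain Ftl1 at -0.19 (edgeR adjusted p 0.79).

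Apoe, the apolipoprotein secreted by macrophages, stood at 15867 and 22101 CPM in WT, at 13991, 4560.4, 10855 and 14895 in YAP3d, and at 2786, 7268 and 5747 in YAP7d. The YAP7d and WT libraries did not overlap, and the difference of -1.85 (SE 0.46) had an edgeR adjusted p of 0.060. With Kupffer cells chosen after thinning Apoe fell by 2.14 (edgeR adjusted p 0.025). The lipid-associated macrophage list as a whole had a median of -0.58 over 15 tested genes, 4 of them higher and 4 lower without overlap, shares near those of all genes (24.1 and 21.7%).

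Between YAP3d and WT edgeR called 0 of the 5504 genes, DESeq2 also called 0, and 204 genes had an unadjusted p below 0.05 (3.71%). Groups that did not overlap were found for 5.07% of genes upward and 5.11% downward. In the MHC class II list all 6 tested genes were lower in the 4 YAP3d libraries than in both WT libraries, with a median log2 difference of -1.07, and 0 passed. Rbm3, Gmnn, Mcm7, Acot1 and Coq7 stood higher in every YAP3d library than in both WT libraries, with log2 differences of 0.81, 0.72, 1.31, 1.89 and 1.82 that did not pass (edgeR adjusted p 1.0 each). The medians of the S phase and mitosis lists were 1.22 and 1.49, and those of Kupffer identity, scavenger receptors and glycolysis 0.02, -0.04 and -0.08.

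Between YAP7d and YAP3d, which differ in the length of induction alone as far as the labels go, 89 genes passed edgeR (1.62%), 17 higher (0.309%) and 72 lower (1.31%), with 961 at an unadjusted p below 0.05. Here too single libraries decided the number, which came to 0 when YAP3d replicate 3 or 4 was left out (764 and 691 at an unadjusted p below 0.05). For YAP7d replicates 1 and 2 in turn it came to 10 and 2, for WT replicate 2 to 46 and for YAP3d replicate 2 to 415. Of the 72 genes that fell 57 were over 2-fold higher in WT endothelial cells, and 3 of the 20 that could be tested without endothelial-positive cells still fell. All 20 kept a difference below 0, with a median of -1.91 against -2.09 for the same genes with all Kupffer cells. Of the 17 genes that rose 15 could be tested there and 0 passed, all 15 with differences above 0 (median log2 difference 1.25, against 1.34 for the same genes with all Kupffer cells). Non-overlapping values were found for 8.88% of all genes upward and 6.05% downward.

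Of the 17 genes that rose with the longer induction, several are given here, and each of these lost its call when the endothelial-positive cells were left out (edgeR adjusted p 0.060 for Tgfbi and Plac8, 0.12 for Lgals3 and 0.14 for Capg, and for the glycolytic Tpi1 and Pkm below). Tgfbi, a secreted adhesion protein, stood at 170.3 and 164 CPM in WT, at 164, 157, 76.8 and 103 in YAP3d, and at 314, 445 and 694 in YAP7d. The YAP7d libraries lay above all others, and Tgfbi rose by 1.97 against YAP3d (edgeR adjusted p 0.028). Lgals3, which encodes galectin-3, stood at 497 and 706 CPM in WT, at 945, 719, 509 and 535 in YAP3d, and at 1189, 1595 and 1966 in YAP7d, and rose by 1.25 (SE 0.27, edgeR adjusted p 0.042), though by 1.06 without YAP7d replicate 3, where it did not pass (0.089). Capg, an actin-capping protein, rose by 1.73 (edgeR adjusted p 0.038). Plac8 stood at 426 and 690.1 CPM in WT, at 399.7, 671, 518 and 394 in YAP3d, and at 1700, 1303 and 2679 in YAP7d, and rose by 1.92 against YAP3d (edgeR adjusted p 0.028) and by 1.73 against WT (SE 0.38, edgeR adjusted p 0.039), the latter only with YAP7d replicate 3 in the fit (without it 1.39, 0.052).

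Plac8, Cx3cr1 and Ly6c2 also mark monocytes. The summed level of the 18 monocyte markers was 622 and 3088 CPM in WT, 1368, 1422, 672 and 800.1 in YAP3d, and 2300, 2111 and 6650 in YAP7d, with 0 to 11 of them at 0 in a library. For this list the median log2 difference between YAP7d and YAP3d was 1.85 over 15 tested genes, 2 of which rose. Ly6c2 stood at 17.7 and 14.6 CPM in YAP7d replicates 1 and 2 and at 379.6 in replicate 3. Cx3cr1, the fractalkine receptor of monocytes, rose by 2.67 against YAP3d (edgeR adjusted p 0.034) but differed by 0.37 (0.82) when Kupffer cells were chosen after thinning, while Tgfbi, Plac8 and Lgals3 still rose there by 1.63, 1.52 and 1.22 (edgeR adjusted p 0.0082, 0.0055 and 0.017). When Kupffer cells with 3 or more UMIs of Ly6c2 and Ccr2 were left out, 5 genes passed edgeR between YAP7d and YAP3d, against 89 with all Kupffer cells. The part of monocytes in these differences was not tested.

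For glycolysis 13 of 18 genes were tested, and between YAP7d and YAP3d the median log2 difference was 0.82. Without overlap 7 were higher and 1 lower (8.88 and 6.05% over all genes), and 2 rose. Tpi1, triose phosphate isomerase, stood at 142 and 107 CPM in WT, at 145, 133, 125 and 89.2 in YAP3d, and at 306, 265 and 301 in YAP7d. YAP7d values were close together above all others, and Tpi1 rose by 1.28 against YAP3d (SE 0.25, edgeR adjusted p 0.034). Pkm, pyruvate kinase, stood at 270 and 410.0 CPM in WT, at 399.7, 414, 346 and 292 in YAP3d, and at 786, 639 and 861 in YAP7d, and rose by 1.08 (SE 0.24, edgeR adjusted p 0.042), though not past the test without YAP7d replicate 3 (0.98, 0.089). Against WT both missed the threshold at 1.28 and 1.12 (edgeR adjusted p 0.058 and 0.076). The nuclear-encoded respiratory chain, with all 74 genes tested, had medians of 0.15 against WT and 0.12 against YAP3d, and 0 of its genes passed.

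Other genes fell with the longer induction. Sdc3, the proteoglycan syndecan-3 and a gene of the identity list, stood at 1235 and 982 CPM in WT, at 1108, 719, 1132 and 1602 in YAP3d, and at 465, 509 and 344 in YAP7d. Every other library lay above YAP7d, and Sdc3 fell by 1.38 against YAP3d (edgeR adjusted p 0.035) and missed the threshold against WT (-1.33, edgeR adjusted p 0.056). Kcna2, a potassium channel gene of the same list, stood at 28.4 and 50.1 CPM in WT, at 72.7, 11.8, 76.8 and 102.9 in YAP3d, and at 6.55, 13.1 and 3.95 in YAP7d, and fell by 3.04 against YAP3d (edgeR adjusted p 0.038) with overlapping values. Cd209f, a lectin of the DC-SIGN family, stood at 14.2 and 54.7 CPM in WT, at 164, 56.2, 9.60 and 34.3 in YAP3d, and at 7.20, 5.54 and 2.51 in YAP7d, and fell by 3.49 (edgeR adjusted p 0.034). With cells chosen after thinning Sdc3 did not pass (-0.99, 0.093), while Cd209f fell by 2.99 (edgeR adjusted p 0.0032).

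Few transcripts of Yap1 were found in Kupffer cells. It had 0 and 2 UMIs in WT, 0, 2, 0 and 0 in YAP3d, and 1, 7 and 14 in YAP7d, and its partner Tead1 had 0 to 2 UMIs per library, so neither could be tested. Among known targets of YAP, Cyr61 had 0 and 8 UMIs in WT and 14, 11 and 17 in YAP7d, and Ctgf and Ankrd1 had 0 to 4 per library. Of the 20 genes of this list 6 were tested and 0 passed.

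Whether the changes between YAP7d and WT differed in Kupffer cells from those in C1q-positive cells without any Kupffer marker was tested as an interaction in the 7 libraries with at least 5 cells of both kinds, in which WT was represented by replicate 2 alone. Of 7413 genes edgeR called 0 (402 at an unadjusted p below 0.05, 5.42%). The fit assumes that the lone WT library varies like those of the other groups, so neither these 0 calls nor the 42 of 7061 genes called without YAP7d replicate 3 are read as changes that the 2 kinds of cell share or do not share. With all 7 libraries the change of Wfdc17 in Kupffer cells was lower by 1.76 on the log2 scale than in the other cells, and that of H2-Aa by 1.56 (edgeR adjusted p 0.78 and 0.91).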

How the data were processed

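Reads had been aligned to mm10 and counted with Cell Ranger by the authors, and Seurat 2 is named in their processing notes; the deposited values are whole-number UMI counts per gene and cell, not normalized, of 27998 genes in 8562 cells. Labels and column names gave the library and group of each cell. Members were chosen, and gene lists and tests set, with earlier results of these data known.

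Cells under 200 genes (35) were left out, and no doublet or mitochondrial filter was applied. Shares were compared over libraries with exact two-sided permutation tests (scipy 1.17.1). Counts summed per library were filtered with filterByExpr, scaled with TMM and fitted over all 3 groups with glmQLFit of edgeR 4.0.16 in R 4.3.3. Gene levels are CPM on TMM-scaled library sizes, except for the rule genes and summed lists, which are plain CPM. DESeq2 1.42.0 was a second tool. In simulated counts 56% of 200 genes changed by a log2 fold of 2 were recovered between YAP7d and WT, with 4.27% of calls false. Labels do not say more of replicates than their number; p-values measure the spread between libraries. Intervals cover counting error only, at 95%.

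Genes were named as up to 12 largest rises and falls per comparison among those past the adjusted p of 0.05 that reached a group mean of 50 CPM without overlap, leaving out rule genes and markers of other cell types; of each list the 4 most abundant tested members and those that passed could be named, and Yap1, Tead1, Ccl2, Csf1 and Tgfb1 were named in any case. Outside this rule, and with their values known, the text also names Wfdc17, Ly96, AW112010, Glul, Malat1, Timp2, Gm10709, the Prg4 list, Fabp7, Adgre1, Mki67, Cdk1, Ccnb1, H2-DMa, H2-DMb1, H2-DMb2, Ciita, Ly6c2, Ccr2, Hspa1a, Cyr61, Ctgf and Ankrd1. Coordinates and promoters are from RefSeq GRCm38.p6. Results that need items withheld for evaluation are not reported here.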

Additional observations from a re-analysis of the deposited data

Results flagged for a closer look

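Among 63 measures examined in the 4 YAP3d libraries, 3 had a highest library whose gap to the next, as a fraction of the range, exceeded the 95% limit for 4 values; chance gives this in about 1 in 20 sets. The fraction was 0.869 for Alox15, with 0, 183, 0 and 24.0 CPM in replicates 1 to 4, where 1 Prg4-positive cell of replicate 2 held 331 of the 333 UMIs of its list. It was 0.896 for Wnt2, with 0, 0, 9.60 and 92.6 CPM, and 0.890 for Lyve1, with 109, 68.0, 441 and 68.6 CPM; replicates 3 and 4 had the highest summed endothelial markers, at 9935 and 7761 CPM, and the part of endothelial transcripts in either value was not tested.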

How the results depend on the processing

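Leaving out single libraries moved the share of Kupffer cells between YAP7d and YAP3d to between 11.8 and 20.2 points; with a YAP3d or YAP7d library out, the exact permutation p was 0.0667 to 0.1, where so few libraries cannot pass 0.05. Between YAP3d and WT it ranged from -0.673 (without YAP3d replicate 2) to 1.47, the mitotic share from -1.77 to 19.9, and the share among C1q-positive cells from -7.70 to 6.52 points, with 5.24 without WT replicate 1, and the last was 1.98 with a quality cut (500 genes, 10% mitochondrial). Calls between YAP7d and WT numbered 0 to 228 with a library left out, 628 with every gene above 0 counts, 16 without endothelial-positive members, 42 with members thinned to 2000 UMIs, 171 under the stricter rule, 74 without members with Ly6c2 and Ccr2, 0 with the Gm10709 term and 193 by DESeq2. Between YAP7d and YAP3d they numbered, in that order, 0 to 415, 542, 3, 37, 5 for the Ly6c2 and Ccr2 choice, 0 and 219, with 137 for members chosen after thinning, 142 without Prg4-positive members and 36 with only the 2 groups fitted. Between YAP3d and WT 46 were called with every gene. The interaction gave 33 with every gene and 0 to 42 with a library left out. Correlations between libraries of the same replicate number were -0.216 to 0.248 over 7 pairs, and -0.332 to 0.332 over 19 pairs of other numbers. They cannot decide whether the numbers pair the libraries, since they are few and those of the 2 WT libraries mirror each other. With the replicate block calls were 318 between YAP7d and WT and 2 between YAP3d and WT. Between YAP7d and WT, Stab1 turned to 0.13 without endothelial-positive members, Prg4, Alox15 and Saa3 to 2.88, 2.91 and 5.67 without WT replicate 2 (lowest with another library left out -10.35, -9.53 and -9.45), and Wnt2 and Birc5 to 4.66 and -0.51 with the Gm10709 term. The cause of these changes was not tested. Settings with members thinned, Prg4-positive, with Ly6c2 and Ccr2, called doublets or a Gm10709 term were added after the data were seen, apart from thinning the members' own counts.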

Other observations

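Immediate early and heat shock genes, which respond to tissue digestion, had a median log2 difference of -1.0 between YAP7d and WT over 23 tested genes of 25, with 0 past edgeR. Hspa1a, an inducible heat shock protein whose reads can be shared with its near-identical neighbour Hspa1b, stood at 426 and 1305 CPM in WT, at 273, 243, 1123 and 563 in YAP3d, and at 333, 19.6 and 16.5 in YAP7d. Replicates 2 and 3 of YAP7d were the lowest of all 9 libraries, and the difference did not pass (-2.88, edgeR adjusted p 0.17). Fos, an early gene of the AP-1 factor, overlapped between the groups (-0.99, edgeR adjusted p 0.34).
Ecm1, a secreted matrix protein on the list of stellate and fibroblast markers used here, fell by 3.01 between WT and YAP7d (SE 0.59, edgeR adjusted p 0.031), from 85.2 and 371 CPM to 10.5, 28.2 and 53.5. Both tested genes of that list of 8 were lower in YAP7d without overlap, and its summed level was 122 and 356 CPM in WT, 56.0 to 133 in YAP3d and 14.6 to 55.6 in YAP7d, so the part of stellate cell transcripts in this fall was not tested. Ccl24, a chemokine for eosinophils, stood at 1037 and 1215 CPM in YAP7d replicates 1 and 2 and at 379 in replicate 3, against 468 and 442 in WT, and did not pass (0.95, edgeR adjusted p 0.26).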
